A study of Mus musculus with 6 samples.

Results

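Zfp954, Zfp773 and Zfp418 are neighbouring C2H2 zinc finger genes of mouse chromosome 7. Zfp383, Zfp74, Zfp30 and Zfp84 are C2H2 zinc finger genes of a second, separate locus on that chromosome. These 7 genes were followed in embryonic retina with and without Ronin, the protein of Thap11. They are 7 of 23441 genes in the count table, and they were picked by name after the difference between these same libraries was known. The CKO group held 3 libraries of retina at embryonic day 14.5 from mice with both Ronin alleles floxed (flox/flox) and 1 copy of the Chx10-Cre::GFP transgene (+/tg), whose Chx10-driven Cre recombines Ronin in retinal progenitor cells. The control group held 3 libraries of Ronin flox/flox retina of the same age, which carry the floxed alleles without the transgene. Mice of both groups came from a background that mixed C57/B6, FVB, SJL/B6 and 129/Sv. The labels do not say whether libraries of a group came from separate animals or litters, so their spread may be partly technical. Cells outside the reach of Cre remain in the dissected tissue, and in bulk RNA fewer cells that express a gene and less RNA per cell cannot be told apart.

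Zinc finger genes of this kind encode long arrays of C2H2 fingers that read DNA, joined in most cases to a KRAB domain at the amino end. The KRAB domain recruits the co-repressor TRIM28, which brings SETDB1 and HP1 proteins and deposits repressive histone H3 lysine 9 methylation, a route best known for silencing transposable elements. The genes arose by tandem duplication and lie in clusters. Ronin itself binds DNA through a THAP domain and works with HCF-1, and promoters bound by THAP11 and ZNF143 often share an element that opens with ACTACA and runs on into a ZNF143 site.

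Of the 7 promoters, 6 held a 12-base sequence that opens with ACTACA and closes with CCC, and these sequences are shown first. Promoters were taken from the RefSeq table of build GRCm38.p6 (250 bases before to 50 after the transcript start), whereas the reads were counted on mm9. All 7 genes matched. The lines below give up to 25 bases on either side of the match, 5′ to 3′ on the strand of the gene and upstream of the start, with the 12 bases of the match in capitals.
Zfp954 (chr7:7121535-7121596, minus strand): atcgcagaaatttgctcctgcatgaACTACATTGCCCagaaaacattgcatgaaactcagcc
Zfp773 (chr7:7136781-7136842, minus strand): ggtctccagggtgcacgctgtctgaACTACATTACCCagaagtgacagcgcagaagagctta
Zfp418 (chr7:7171229-7171290, plus strand): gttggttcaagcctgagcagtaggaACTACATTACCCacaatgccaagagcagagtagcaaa
Zfp383 (chr7:29908451-29908512, plus strand): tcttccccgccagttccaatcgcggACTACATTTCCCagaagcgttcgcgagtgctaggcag
Zfp74 (chr7:29954080-29954141, minus strand): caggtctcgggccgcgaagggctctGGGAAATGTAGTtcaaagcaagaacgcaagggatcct
Zfp84 (chr7:29768504-29768551, plus strand): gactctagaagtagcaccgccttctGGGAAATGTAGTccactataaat

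In Zfp74 and Zfp84 the element runs on the opposite strand, where it reads ACTACATTTCCC, as in Zfp383. Zfp773 and Zfp418 shared ACTACATTACCC, and Zfp954 had ACTACATTGCCC. Counted from the transcript start, with the last base before it at -1, the match spanned -95 to -84 in Zfp954, -62 to -51 in Zfp773 and -99 to -88 in Zfp418. It spanned -41 to -30 in Zfp383, -51 to -40 in Zfp74 and -23 to -12 in Zfp84. The motif made of ACTACA, any 2 bases and TCCC matched 3 of the 7 promoters (Zfp383, Zfp74 and Zfp84), on either strand, against 2.08% of 27025 genes with a listed promoter. The wider motif of ACTACA, any 3 bases and CCC, called the 12-base element from here on, which holds every match of the first and was chosen after these promoters had been read, matched 6 of the 7 against 2.41% of the 27025. Among genes tested, 573 of the 11437 with a listed promoter (5.01%) held it. Those 11437 are 78.3% of genes tested, under 80%, so that share is void as a comparison. Of the 336 other tested genes with a Zfp symbol, 276 had a listed promoter, and 54 of these (19.6%) held the element. Another motif, made of CCCAG, any 2 bases and TGC, matched 0 of the 7 against 3.55%. The promoter without the element was that of Zfp30, whose 250 bases before the start are shown for comparison and hold no ACTACA on either strand.
Zfp30 (chr7:29783718-29783967, plus strand): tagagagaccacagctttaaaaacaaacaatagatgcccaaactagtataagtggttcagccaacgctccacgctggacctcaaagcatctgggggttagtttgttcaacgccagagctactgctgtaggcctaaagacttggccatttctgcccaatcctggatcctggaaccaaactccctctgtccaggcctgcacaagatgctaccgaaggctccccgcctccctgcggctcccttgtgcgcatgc

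The libraries held between 23721052 and 28504391 counted reads. Thap11 itself had 323, 292 and 156 reads in CKO replicates 1 to 3 and 1739, 1880 and 1880 reads in control replicates 1 to 3. Retinal progenitor markers (10 of 10 listed genes measured) summed to 3769 to 3901 CPM in the CKO and 3661 to 4016 CPM in the controls, where CPM is counts per 1000000 reads of the library size after TMM scaling. Lens markers (15 of 15 measured, none at 0) summed to 9374, 64.2 and 658 CPM in CKO replicates 1, 2 and 3, against 12.2 to 18.8 CPM in the controls. Endothelial markers (7 of 7) summed to 241 to 261 CPM in the CKO and 273 to 329 CPM in the controls. Pigment epithelium (7 of 7) summed to 14.5 to 20.1 CPM in the CKO and 18.7 to 38.0 CPM in the controls, and mesenchyme (5 of 5) to 17.8 to 40.5 and 30.7 to 73.4 CPM in CKO and controls. Ganglion cell markers (6 of 6) summed to 2555 to 2630 CPM in the CKO and 2355 to 2507 CPM in the controls, without overlap. Erythroid markers (6 of 6, with Hba-a2, Hbb-b1 and Hbb-b2 at 0 in every library) summed to 2.28 to 4.29 CPM in the CKO and 4.49 to 6.32 CPM in the controls, also without overlap. Microglial markers (4 of 4) summed to 24.6 to 32.9 CPM in the CKO and 26.5 to 34.5 CPM in the controls. The median correlation of log2 CPM with the others of the group was 0.989 to 0.993 for CKO libraries, and 0.970, 0.966 and 0.979 for control replicates 1, 2 and 3.

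Zfp954, Zfp773 and Zfp418 lie side by side and were each lower in every CKO library than in any control. Zfp773 had 1.76, 2.69 and 1.80 CPM in CKO replicates 1 to 3, against 10.6, 11.9 and 11.4 CPM in control replicates 1 to 3. The CKO mean was 18.4% of the control mean, the lowest share among the 7 genes (log2 fold change -2.44 ± 0.23, SE). CKO replicate 2 was the highest of its group, and the groups did not overlap. Zfp418, whose human counterpart ZNF418 is described as a transcriptional repressor, was the least abundant by CPM and rested on few reads. It had 42, 26 and 21 reads in the CKO and 152, 97 and 145 reads in the controls, or 1.45, 0.970 and 0.858 CPM against 5.97, 4.23 and 5.52 CPM. The CKO mean of 1.09 ± 0.32 CPM was 20.9% of the control mean of 5.24 ± 0.90 CPM (SD, n = 3 each), with a log2 fold change of -2.25 ± 0.28.

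Zfp954 had the smallest difference of these 3 genes. Its levels were 6.64, 5.78 and 7.11 CPM in the CKO and 17.6, 18.3 and 13.1 CPM in the controls. Control replicate 3 was the lowest control, and it was still above the highest CKO library. The log2 fold change was -1.33 ± 0.19, and the CKO mean was 39.9% of the control mean.

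**Figure D1:**
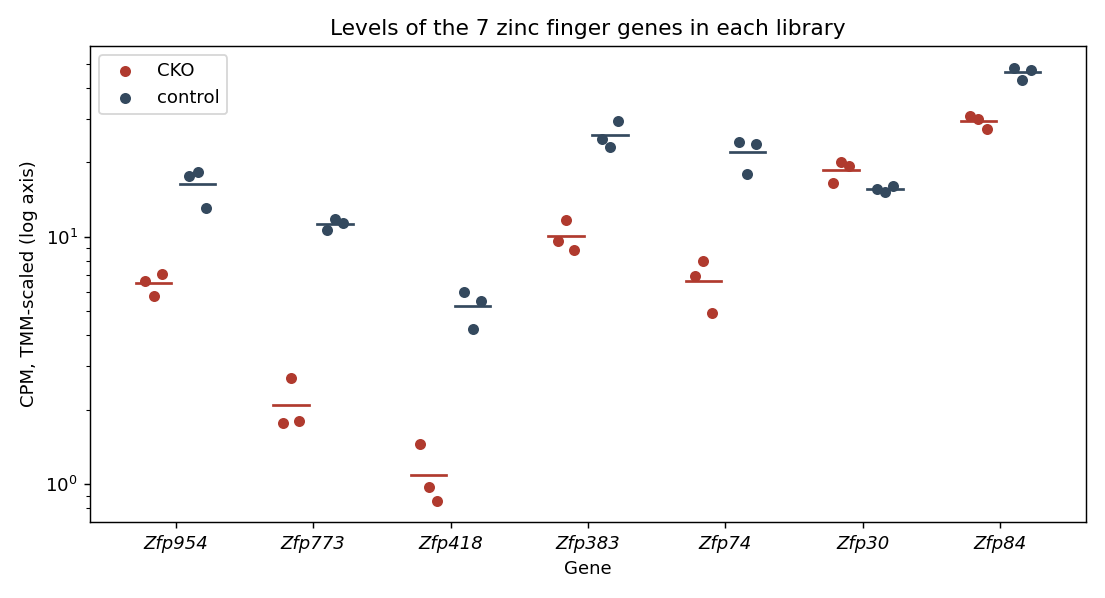
CPM (log axis) of the 7 zinc finger genes in each library, with CKO points left of control points and a bar at each group's mean. In 6 genes the 3 CKO points lie below the 3 control points, from 18.4% of the control mean in Zfp773 to 63.3% in Zfp84, whereas in Zfp30 they lie above.

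Zfp383 and Zfp74, next to each other in the second locus, were the lower pair there. Zfp74 had 6.96, 8.02 and 4.95 CPM in the CKO, against 24.3, 18.0 and 23.8 CPM in the controls (log2 fold change -1.73 ± 0.23). CKO replicate 3 was the lowest, and the groups did not overlap. Zfp383 had 9.66, 11.7 and 8.83 CPM in the CKO, against 24.96, 23.2 and 29.3 CPM in the controls (log2 fold change -1.36 ± 0.18). The CKO means were 30.2% of the control mean for Zfp74 and 39.0% for Zfp383.

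Zfp84 and Zfp30, at the other end of that locus, differed in direction. Zfp84 was the most abundant of the 7 by CPM and the least reduced of the 6. Its levels were 30.8, 29.9 and 27.3 CPM in the CKO and 48.4, 43.2 and 47.5 CPM in the controls, a log2 fold change of -0.66 ± 0.13. Zfp30, known in mice as a regulator of neutrophil recruitment to the airway, was not lower, although it was listed among falling genes. It had 16.6, 20.1 and 19.3 CPM in the CKO and 15.6, 15.2 and 16.1 CPM in the controls. Every CKO library was above every control, by 1.20 times on the means (log2 fold change 0.26 ± 0.15).

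As a group, 6 of the 7 genes had every CKO library below every control library, which held for 6.91% of 14609 genes tested, and 1 of 7 had every CKO library above, against 5.74%. At an adjusted p under 0.05 (quasi-likelihood test of edgeR, Benjamini-Hochberg over all genes), 5 of the 7 were called lower, against 0.705% of genes tested. Zfp84 and Zfp30 were not called. The median log2 fold change was -1.36 over the 7 and -0.03 over all genes tested. The 7 were chosen on this contrast, so these counts describe them and test nothing. All 7 passed the filter on low counts.

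CKO replicate 3, which had the fewest Thap11 reads, had the lowest CKO level of Zfp418, Zfp383, Zfp74 and Zfp84. It had the highest CKO level of Zfp954 and stood between the others for Zfp773 and Zfp30. CKO replicate 1, with the highest lens sum, was highest for Zfp418 and Zfp84 and lowest for Zfp773 and Zfp30. Without that library the log2 fold changes were -2.51 for Zfp418, -2.33 for Zfp773, -1.76 for Zfp74, -1.34 for Zfp954, -1.33 for Zfp383, -0.70 for Zfp84 and 0.34 for Zfp30. Without control replicate 2 they were -2.37 for Zfp418, -2.39 for Zfp773, -1.84 for Zfp74, -1.23 for Zfp954, -1.42 for Zfp383, -0.70 for Zfp84 and 0.25 for Zfp30. The part of the ganglion cell, endothelial and erythroid sums, which also separated the groups, was not tested.

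**Figure D2:**
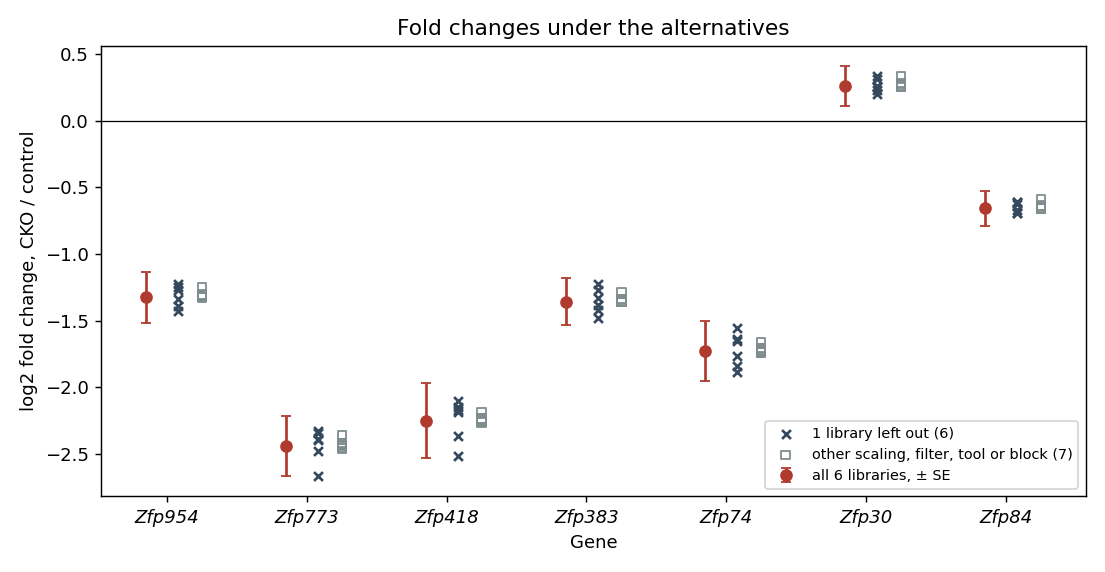
Log2 fold change (CKO over control) of each gene with all 6 libraries (circle, ± SE), with 1 library left out in turn (crosses) and under the other scalings, filters, tools and the replicate block (squares). No value crosses 0: Zfp773 ranged between -2.66 and -2.33, Zfp84 between -0.70 and -0.59, and Zfp30 between 0.20 and 0.34.

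Levels of different genes were compared after division by exon length (GENCODE M21 basic transcripts, kilobases). The annotation behind the counts was not given, so the lengths counted may differ and the order with them. In the CKO the order was Zfp84 at 7.13 ± 0.43 CPM per kb, Zfp30 at 5.25 ± 0.52, Zfp383 at 3.85 ± 0.57, Zfp954 at 3.19 ± 0.33, Zfp74 at 1.18 ± 0.28, Zfp418 at 0.401 ± 0.116 and Zfp773 at 0.316 ± 0.079 CPM per kb (SD, n = 3). In the controls it was Zfp84 at 11.3 ± 0.68 CPM per kb, Zfp383 at 9.88 ± 1.20, Zfp954 at 8.002 ± 1.37, Zfp30 at 4.39 ± 0.12, Zfp74 at 3.91 ± 0.62, Zfp418 at 1.92 ± 0.33 and Zfp773 at 1.71 ± 0.094 CPM per kb. Zfp30 was above Zfp383 and Zfp954 in the CKO and below both in the controls. Zfp383 and Zfp954, and Zfp418 and Zfp773, differed by less than the sum of their SDs in both groups. In the controls the same held for Zfp84 and Zfp383 and for Zfp30 and Zfp74.

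Near-identical sequence limits some of these counts. Of the 50-base words in their GENCODE M21 transcripts, 8.37% for Zfp773, 3.36% for Zfp74, 1.66% for Zfp954 and 0.0187% for Zfp418 also occurred in transcripts of another gene, and none for Zfp383, Zfp30 and Zfp84. The gene that shared most words was Gm47759 for Zfp773 (267 of 538 shared words), Zfp772 for Zfp954 (36 of 39) and C230062I16Rik for Zfp74 (187 of 189). C230062I16Rik lies on the opposite strand within the Zfp74 locus and was not analysed here. The sources used here do not say whether counting was by strand, and reads from the sequence shared by Zfp74 and that gene cannot be told apart.

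The genes around the 7 were then examined by chromosomal order: every RefSeq gene matched in the count table between the outermost members of a locus, and 10 more on either side. Of 45 such neighbours 30 passed the filter on low counts. None was called lower and 2 were called higher, against 0.705% and 0.192% of genes tested (edgeR quasi-likelihood test, Benjamini-Hochberg over all genes). At an unadjusted p under 0.05 by that test, 5 of the 30 were lower and 4 higher. Over all genes tested, 637 of 14609 were lower at that threshold, and the number higher is not given here. The median log2 fold change of the neighbours was 0.05. DESeq2's Wald test called 3 lower (Zfp420, Zfp790 and Zfp940), limma-voom called 0, and edgeR called 2 (Zfp420 and Zfp790) without control replicate 2. The Wald test also called 4 higher (Gm5113, Vmn2r29, Zfp566 and Zfp772), and limma-voom called 2 higher (Gm5113 and Vmn2r29). Without control replicate 2, edgeR called 3 higher (Gm5113, Vmn2r29 and Zfp772). Over all genes the Wald test called 196 lower and 117 higher of 19085 genes run. The numbers were 93 and 27 of 14609 for limma-voom. For edgeR without control replicate 2 they were 147 and 72 of 14776. Since the members were picked for their fall, a lower share among their neighbours follows in part from that choice.

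In the second locus Zfp790, Zfp940, Zfp420 and Zfp27 lie in that order between Zfp30 and Zfp383. They are named, like the others of this paragraph, after their values were seen. Zfp790 had 17.1, 14.9 and 14.2 CPM in the CKO against 24.8, 26.9 and 27.4 CPM in the controls (log2 fold change -0.77 ± 0.15, edgeR adjusted p = 0.0794). Zfp940 averaged 8.40 ± 0.13 CPM in the CKO and 15.4 ± 3.17 CPM in the controls, and Zfp420 6.25 ± 0.56 and 11.02 ± 2.20 CPM in CKO and controls (SD, n = 3 each). In these 3 genes every CKO library was below every control, with edgeR adjusted p values of 0.134 for Zfp940 and 0.229 for Zfp420. Zfp27, next to Zfp383, stood at 20.05 ± 1.19 CPM in the CKO and 20.9 ± 0.91 CPM in the controls. Zfp568, next to Zfp74 on the other side, stood at 75.6 ± 7.0 CPM in the CKO and 76.3 ± 11.5 CPM in the controls.

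**Figure D3:**
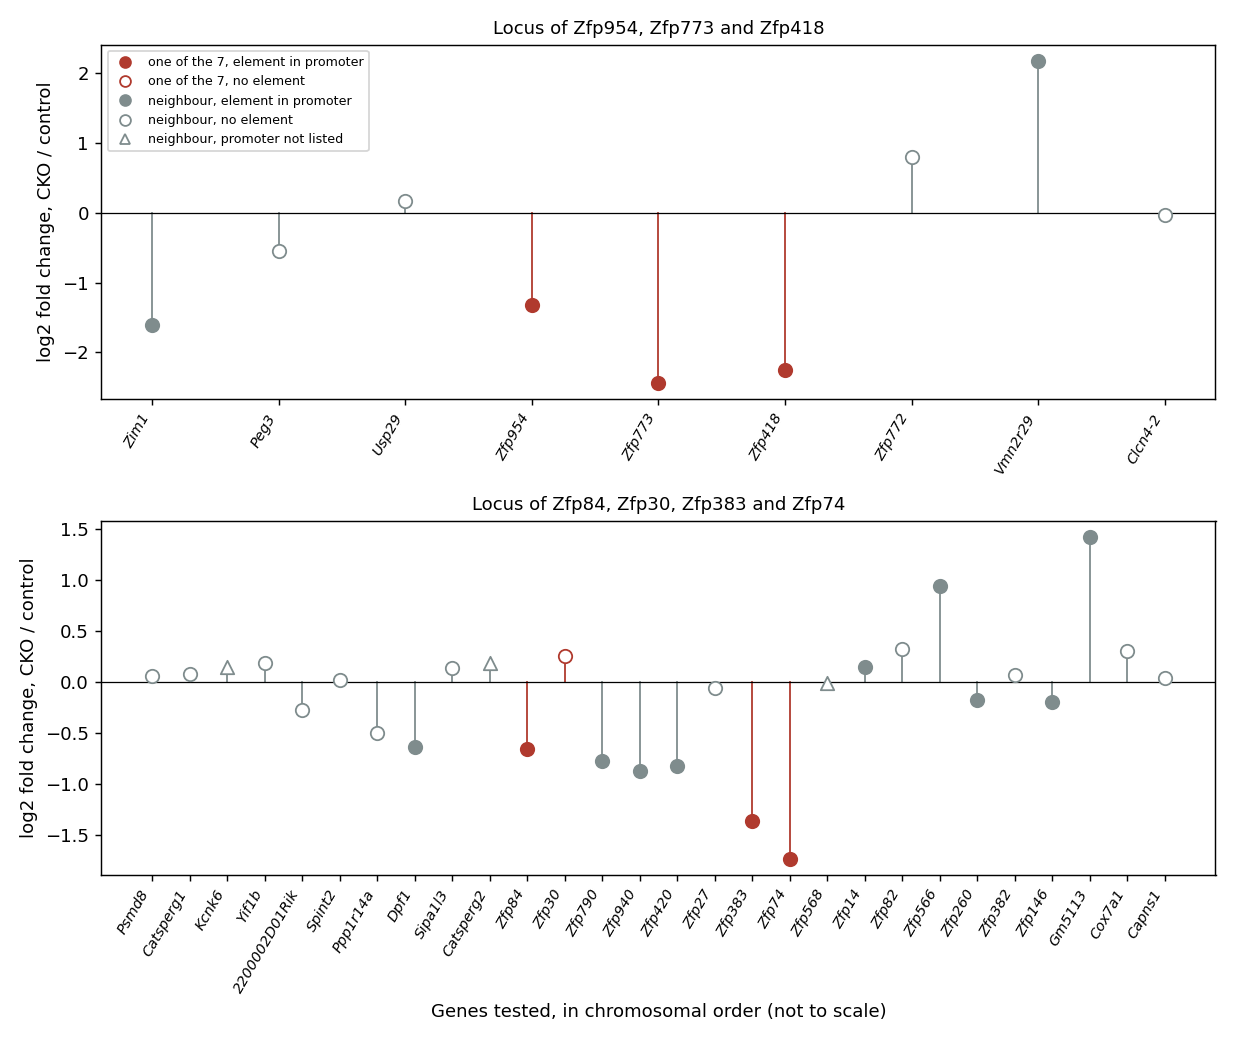
Log2 fold change (CKO over control) of the genes tested in the 2 loci, in chromosomal order. Filled circles hold the 12-base element in the promoter, open circles do not, triangles have no listed promoter, and red marks the 7 genes. Zfp30 and Zfp27, without the element, sit near 0 between genes at -0.66 to -1.36. Of the 11 neighbours with the element, 7 lie below 0 and 4 above: Vmn2r29 (2.18), Gm5113 (1.42), Zfp566 (0.93) and Zfp14 (0.15).

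Both called neighbours rose. Gm5113, beyond Zfp146, had 30.5, 26.9 and 28.8 CPM in the CKO against 12.1, 9.03 and 11.04 CPM in the controls (log2 fold change 1.42 ± 0.16, edgeR adjusted p = 0.0107). Vmn2r29, a vomeronasal receptor gene next to Zfp772, had 171, 173 and 146 reads in the CKO and 28, 37 and 35 reads in the controls (log2 fold change 2.18 ± 0.22, edgeR adjusted p = 0.00722). Reads of Vmn2r29 can be divided with near-identical receptor genes. Both calls were lost without control replicate 3 (edgeR adjusted p = 0.0855 for Gm5113 and 0.0637 for Vmn2r29) and without CKO replicate 3 (0.0868 and 0.0607), and that of Gm5113 also without CKO replicate 1 (0.0737) or CKO replicate 2 (0.0537). Zfp772, between Zfp418 and Vmn2r29, stood at 23.97 ± 1.02 CPM in the CKO and 13.8 ± 1.74 CPM in the controls, above the controls in every CKO library (edgeR adjusted p = 0.0895). The most abundant neighbours not called were Clcn4-2 at 149 ± 5.19 and 153 ± 5.15 CPM, the imprinted gene Peg3 at 103 ± 4.72 and 151 ± 30.7 CPM, the proteasome subunit gene Psmd8 at 137 ± 9.93 and 131 ± 30.3 CPM, and Zfp146 at 122 ± 6.38 and 140 ± 2.68 CPM in CKO and controls.

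The element was present in the promoters of 11 tested neighbours, absent from those of 16, and 3 had no listed promoter. Of those 11, 7 had negative log2 fold changes, 5 had every CKO library below and 3 every CKO library above the controls. Of the 16 without it, 5 had negative log2 fold changes, 1 had every CKO library below and 2 every CKO library above. Over all genes tested, every CKO library was below every control in 6.91% and above in 5.74%. In the second locus 6 of the neighbours had the same 12 letters as Zfp383, Zfp74 and Zfp84, and their windows are shown because their levels differ in direction. The first 3 were lower in every CKO library, whereas Zfp14, Zfp566 and Zfp260 were not.
Zfp790 (chr7:29815943-29816004, plus strand): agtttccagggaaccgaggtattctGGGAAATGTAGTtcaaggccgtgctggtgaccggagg
Zfp940 (chr7:29853649-29853710, minus strand): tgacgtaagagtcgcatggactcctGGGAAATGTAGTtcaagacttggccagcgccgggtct
Zfp420 (chr7:29859895-29859956, plus strand): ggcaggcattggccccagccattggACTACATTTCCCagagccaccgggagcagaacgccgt
Zfp14 (chr7:30051397-30051435, minus strand): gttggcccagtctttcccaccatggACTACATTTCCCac
Zfp566 (chr7:30090550-30090611, minus strand): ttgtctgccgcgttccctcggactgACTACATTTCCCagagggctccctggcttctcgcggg
Zfp260 (chr7:30095022-30095075, plus strand): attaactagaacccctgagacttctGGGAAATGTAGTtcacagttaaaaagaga

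Zfp14 stood at 9.59 ± 0.31 CPM in the CKO and 8.66 ± 1.12 CPM in the controls, and Zfp260 at 112 ± 5.43 CPM in the CKO and 127 ± 29.2 CPM in the controls. Zfp566 had 14.6, 18.2 and 19.99 CPM in the CKO against 7.54, 9.77 and 10.3 CPM in the controls, above the controls in every CKO library (log2 fold change 0.93 ± 0.20, edgeR adjusted p = 0.123). The match lay at -14 to -3 in Zfp14, -76 to -65 in Zfp566 and -29 to -18 in Zfp260. Zim1, a zinc finger gene near Peg3, held 2 matches and had 25, 11 and 1 reads in the CKO against 33, 21 and 50 reads in the controls, and was not called (log2 fold change -1.60 ± 0.68, edgeR adjusted p = 0.747). In Gm5113 the match read ACTACACTTCCC at -15 to -4. In Vmn2r29 it read ACTACAGCTCCC and spanned the start, from -9 to 3.

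**Figure D4:**
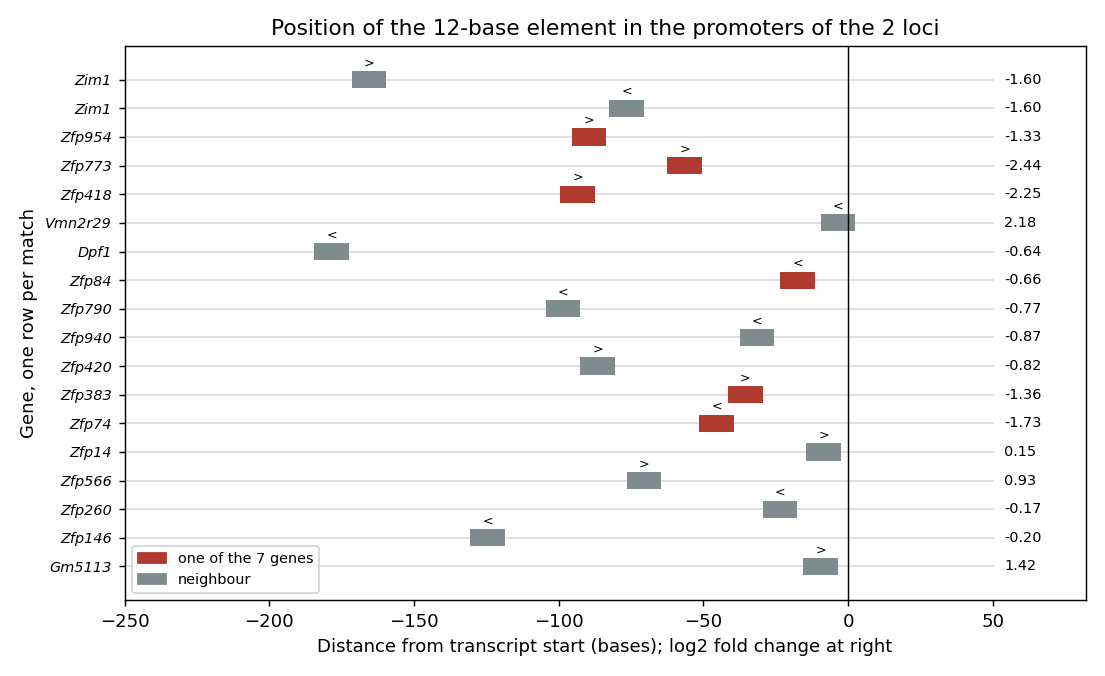
Position of each match to the 12-base element relative to the transcript start (x axis, bases), one row per match, for the 7 genes (red) and their tested or listed neighbours (grey). Arrowheads give the strand and the numbers at right the log2 fold change. Matches of the 6 genes lie between -99 and -12, and those of the neighbours between -184 and 3.

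The same split was made over zinc finger genes in general. Of 336 other tested genes with a Zfp symbol, 276 had a listed promoter, and 54 of these held the 12-base element. Every CKO library was below every control in 23 of the 54 and in 10 of the 222 without the element, against 6.91% of all genes tested. The median log2 fold change was -0.44 with the element and 0.04 without it. Called lower (edgeR adjusted p under 0.05) were 8 of the 54 (14.8%) and 3 of the 222 (1.35%), against 0.705% of all genes tested. None of either was called higher, against 0.192% of all genes tested. With 1 library left out, counts of separated genes can only stay or rise, since fewer libraries have to separate. With and without the element they were 35 and 31 without control replicate 2, and 26 and 31 without control replicate 1. They were 24 and 18 without CKO replicate 1. The 6.91% is for all 6 libraries and is no background for these counts.

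**Figure D5:**
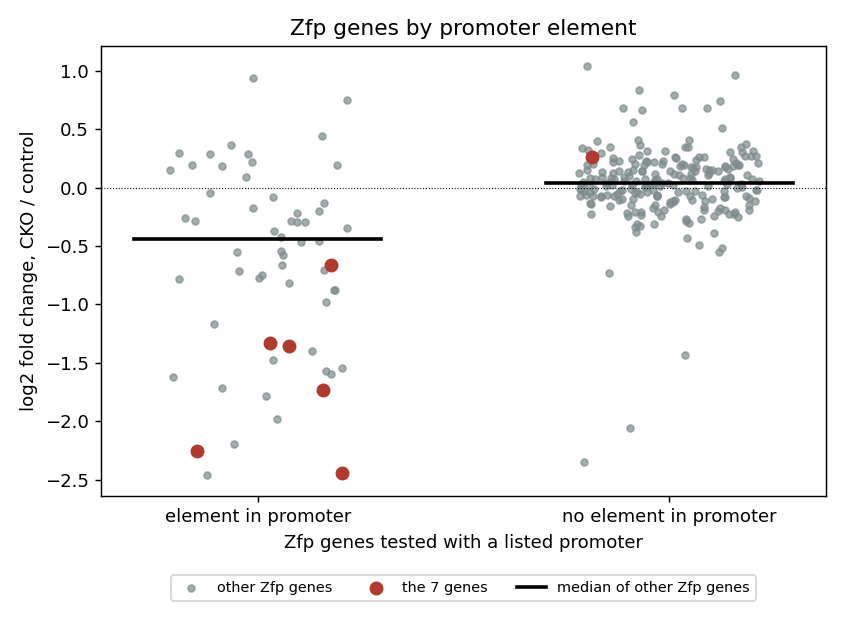
Log2 fold change (CKO over control) of tested Zfp genes with a listed promoter, split by whether the promoter holds the 12-base element. Grey points are other Zfp genes (54 with, 222 without), red points the 7 genes, and bars the medians of the grey points (-0.44 and 0.04). Grey points on the left spread further below 0 than those on the right, and both sides hold exceptions.

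Of 40 other zinc finger genes, listed from knowledge of proximal chromosome 7 (1 of them, Zfp781, is on chromosome 10 in RefSeq), 2 fell and 1 rose by the edgeR test, against 0.705% and 0.192% of all genes tested, with a median log2 fold change of -0.07. In 10 of the 40 every CKO library was below every control, and in 7 above, against 6.91% and 5.74% of all genes tested. Zfp110 stood at 9.08 ± 1.94 CPM in the CKO and 37.9 ± 2.79 CPM in the controls (SD, n = 3 each, edgeR adjusted p = 0.00590), and Zscan22 at 3.24 ± 0.73 and 12.5 ± 3.62 CPM in CKO and controls (adjusted p = 0.0263). Zfp446 rose to 81.5 ± 7.40 CPM in the CKO, against 26.3 ± 0.28 CPM in the controls (adjusted p = 0.00425). The Zscan22 call held without control replicate 2 (edgeR adjusted p = 0.00737) and was lost when any other library was left out (0.0776 to 0.151). The most abundant of these genes not called were Peg3 and Zfp444 near the first locus and Zfp146 and Zfp260 near the second.

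The co-repressor machinery through which KRAB zinc finger proteins act was measured for 23 of 24 listed genes, and none was called in either direction (edgeR, with 0 at an unadjusted p under 0.05, and 0 calls by DESeq2 and limma-voom). The median log2 fold change of the list was -0.11. Trim28, the direct partner of the KRAB domain, had 865, 898 and 916 CPM in the CKO and 833, 1532 and 883 CPM in the controls, so that control replicate 2 lay apart and the groups overlapped.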

How the data were processed

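RNA of CKO and control retina was sequenced as 3 libraries per group after poly-A selection, per the labels' protocols. The authors deposited 1 table of raw read counts per gene symbol. HTSeq 0.5.4p3, BWA 0.7.6a-r433, DESeq 2.13 and build mm9 are named, per the submitters' processing notes, with no roles or settings. The annotation and the use of strand were not given in the sources used here. The table ended in 4 lines left by a merge conflict, which were left out, and 1 repeated gene with equal counts was kept once. Groups came from sample titles.

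Counts were analysed with edgeR 4.0.16 in R 4.3.3: filterByExpr (minimum count 10), TMM, and the quasi-likelihood test of genotype, with Benjamini-Hochberg adjustment over 14609 genes. SE was derived from the log2 fold change and the root of its F statistic. On simulated data the test recovered 43 of 97 genes changed 2-fold and 94 of 99 changed 4-fold. It made 7 false calls among 14499 genes run. A gene that was not called can therefore still differ. No 2 libraries agreed within sampling noise (lowest chi-square per degree of freedom 5.98). The 7 genes, the lists and the motifs were chosen with earlier results of these data known, and no p is given for the 7. Named besides them were called neighbours, the 2 most abundant uncalled neighbours of each locus, called or most abundant list genes, and the 6 genes most like the 7; others are named as chosen after their values were seen. Promoters were matched by symbol or a unique synonym in RefSeq (GRCm38.p6). Of genes tested 78.3% and of genes called higher 75% had a promoter, under 80%, so motif shares over those sets are given as description and void as comparisons. Alternatives used DESeq2 1.42.0 and limma 3.58.1 (voom), other scalings and filters, the replicate block, and each library left out.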

Additional observations from a re-analysis of the deposited data

How the results depend on the processing

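Each of the 7 genes kept its direction under all 13 alternatives, and their median log2 fold change of -1.36 ranged between -1.48 and -1.34 when 1 library was left out. Counts of calls moved more. By the Wald test of DESeq2, 117 genes were higher and 196 lower (edgeR 28 and 103), with 6 of the other zinc finger genes lower (edgeR 2) and 3 position neighbours lower (edgeR 0). At an adjusted p of 0.01, edgeR called 8 genes higher, 31 lower and 1 of the other zinc finger genes lower. With 1 library left out, calls ranged from 6 to 72 genes higher, 10 (without CKO replicate 3) to 147 (without control replicate 2) genes lower, 1 to 5 other zinc finger genes lower and 0 to 2 neighbours lower. The causes were not tested. Zfp418 was -2.51 without CKO replicate 1 and Zfp773 -2.66 without CKO replicate 2. With counts as low as 21 reads, Zfp418 is the least precise of the 7.

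The following were chosen after seeing the data. Requiring TT at positions 7 and 8 of the element gave 13 of 30 Zfp genes with it and 20 of 246 without it whose CKO libraries all lay below the controls (23 of 54 and 10 of 222 with the wider motif). Leaving out 1 library, which can only keep or raise the counts of the wider motif, gave 24 to 35 of 54 with the element and 13 to 31 of 222 without it.

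Replicate numbers are shared between the groups, but the labels do not say what they mark. Deviations from the group means correlated at 0.325, 0.0997 and -0.0238 between same-numbered libraries, so the fit without a block was kept. With the replicate block the median of the 7 was -1.36, edgeR called 113 genes lower and 40 higher, 2 other zinc finger genes lower and 0 neighbours lower.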

Other observations

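Among genes called lower outside the 7 (98 genes), 83 had a listed promoter. Of these, 69 (83.1%) held the 12-base element, against 2.41% of all 27025 genes with a listed promoter. The 27025 include genes too low to be tested, and among genes tested 573 of the 11437 with a listed promoter held it. Most holders were not called. Of 556 tested protein-coding genes with the element, outside the 7, 68 (12.2%) were called lower and 8 higher. Of 10447 without it, 14 were called lower and 12 higher. Of 28 genes called higher, 21 (75%) had a listed promoter, too few for a comparison, and 9 of these (42.9%) held it as well. Zfp110, which fell, had no match to it within its window.

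The 6 genes whose profile over the 6 libraries was nearest to the mean profile of the 7, by root mean square difference in centred log2 CPM among 12981 genes, were Zfp286 (0.0736), Napb (0.102), 4933404O12Rik (0.105), Zfp697 (0.116), Tor2a (0.130) and Zfp661 (0.141). None of the 6 lies on chromosome 7. Zfp286, the nearest, had 11.8, 11.9 and 11.3 CPM in the CKO against 26.5, 25.2 and 26.6 CPM in the controls. The promoters of Napb, 4933404O12Rik, Tor2a and Zfp661 held the element, that of Zfp697 did not, and that of Zfp286 was not listed.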
